A study of Mus musculus with 6 samples.

Results

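The 2′-5′ oligoadenylate synthetase (OAS) family was described here in mouse cerebral cortex through its 8 members Oas1a, Oas1b, Oas1c, Oas1g, Oas2, Oas3, Oasl1 and Oasl2, which were chosen by name out of 23366 genes. All 8 were above 0 in at least 1 mouse, and 7 passed the filter of a mean of at least 0.5 FPKM (fragments scaled to transcript length and to library size) that left 14385 genes for testing. Oas1g, with a mean of 0.31 FPKM over 6 mice, did not pass. Of the 7 tested members, Oas1a, Oas2 and Oasl1 had a control mean under 0.5 FPKM and passed only through the microglia-depleted mice.

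OAS proteins are cytoplasmic sensors of double-stranded RNA, a common product of virus replication. The catalytically active members join ATP into short 2′-5′-linked adenylate chains, called 2-5A, and these chains act as a second messenger of the antiviral response. Most OAS genes are transcribed at a low level in resting tissue and are induced by type 1 interferon through a transcription factor complex, with STAT2 and IRF9 among its parts, that binds interferon-stimulated response elements in their promoters.

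The RNA came from brain cortex of C57BL/6 mice, described by the study as frontal, with 1 library a mouse from 3 control mice (A1, A2, A3) and 3 microglia-depleted mice (A4, A5, A6). The depleted mice were CX3CR1-CreERT2+/- iDTR+/- and were sampled at d10 after depletion, and the controls were littermates of genotype CX3CR1-CreERT2+/- without the iDTR allele. Both genotypes thus carried the Cre allele and received tamoxifen, which switches the Cre recombinase on and, where iDTR is present, starts expression of the diphtheria toxin receptor, so that diphtheria toxin kills the cells. Whether the controls also received toxin is not stated in the sources used here. The study describes its mice as adult and the 2 genotypes as matched for age, but gives no ages. The CX3CR1 promoter drives Cre in microglia and in other myeloid cells. The study's scheme gives toxin only after a wait in which untargeted cells replace the blood monocytes. Outside the brain, it reports a loss of CX3CR1-positive cells only in the small intestine among the organs examined. Microglia had returned to the tissue by the day of sampling. The contrast is thus between cortex without ablation and cortex during repopulation, not between cortex with and without microglia.

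An estimate from the spacing of low FPKM values put the depth at about 11200000 to 20500000 fragments a library, and at about 3540000 fragments in A5. Across all genes, 4 of 14385 passed an adjusted p under 0.1 in limma. The 3 cortical neuron markers Cux2, Tbr1 and Rorb were present in every mouse, with summed levels of 42.0 to 46.0 FPKM in controls and 34.6 to 46.6 FPKM in depleted mice. A4 stood apart: its summed level of 4 Y-linked genes was 5.56 FPKM against at most 0.16 FPKM in each other mouse, whereas Xist was at 30.86 FPKM in A4 and at 4.74 FPKM in A3, and at 38.14 to 46.66 FPKM in the others. These are mice that the study describes as sex-matched, and whether A3 or A4 holds RNA of another or of more than 1 mouse could not be settled from these values. Because A4 was also the mouse with the highest level of all 8 OAS genes, the differences below are given with and without it where a call, a sign or a size depends on it, and the part of its different sex-linked RNA in these results was not tested.

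The genes lie in 2 places on chromosome 5 of the RefSeq mouse annotation. Oasl2 and Oasl1 are close neighbours with 1 predicted gene between them, and the other 6 members share a cluster in which Oas2, Oas3, Oas1e, Oas1c, Oas1b, Oas1f, Oas1h, Oas1g and Oas1a follow each other with no other gene between them. RefSeq held a promoter for 6 of the 8 members (build GRCm38.p6, 250 bases before the start of transcription). These windows are shown because they carry, or lack, the core of the interferon-stimulated response element, searched on both strands as GAAANNGAAA and put in capitals where found. Overlapping matches were counted as separate matches. The Oas1a window (chr5:120907526-120907775, minus strand) held 2 overlapping matches at -20 to -11 and -14 to -5 from the start. The Oas1g window (chr5:120887614-120887863, minus strand) held the same pair at -18 to -9 and -12 to -3, inside a run of 56 bases identical between both promoters. The Oas3 window (chr5:120777660-120777909, minus strand) held a single match at -75 to -66. The Oas1c window held a pair on the opposite strand at -114 to -105 and -108 to -99, and its 120 bases that lie outside Oas1b are shown (chr5:120812515-120812634, minus strand). The Oasl2 window (chr5:114896684-114896933, plus strand) held no match and is shown for contrast, and the Oasl1 window held none.
Oas1a: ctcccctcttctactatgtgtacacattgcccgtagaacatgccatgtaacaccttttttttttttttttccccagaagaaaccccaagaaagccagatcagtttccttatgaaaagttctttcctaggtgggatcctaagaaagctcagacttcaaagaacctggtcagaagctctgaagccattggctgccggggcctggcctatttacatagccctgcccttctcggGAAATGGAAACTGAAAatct
Oas1g: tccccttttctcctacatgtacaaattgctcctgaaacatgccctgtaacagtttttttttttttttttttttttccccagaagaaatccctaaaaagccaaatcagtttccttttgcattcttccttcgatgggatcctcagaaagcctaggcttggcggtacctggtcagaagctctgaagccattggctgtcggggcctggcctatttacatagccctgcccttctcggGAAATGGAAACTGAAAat
Oas3: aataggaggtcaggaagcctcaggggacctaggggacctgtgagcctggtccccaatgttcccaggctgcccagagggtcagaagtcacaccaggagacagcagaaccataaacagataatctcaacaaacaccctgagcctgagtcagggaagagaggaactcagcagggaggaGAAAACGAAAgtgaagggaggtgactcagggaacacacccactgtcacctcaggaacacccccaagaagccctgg
Oas1c: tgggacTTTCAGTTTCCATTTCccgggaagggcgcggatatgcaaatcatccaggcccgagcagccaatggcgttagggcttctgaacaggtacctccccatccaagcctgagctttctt
Oasl2: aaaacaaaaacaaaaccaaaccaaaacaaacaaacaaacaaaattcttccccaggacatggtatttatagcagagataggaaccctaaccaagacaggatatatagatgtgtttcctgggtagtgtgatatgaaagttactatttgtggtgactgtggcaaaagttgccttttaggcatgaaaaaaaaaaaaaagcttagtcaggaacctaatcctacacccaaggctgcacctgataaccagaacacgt

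The motif was thus present in 4 of 6 member promoters, or 66.7%, against 978 of 32851 mouse promoter windows of the same length, or 2.98%. A match is a run of letters and not a measured binding site, and the absence of these letters from a window says nothing of the factor. Of the tested members with a promoter entry, those that hold a match had log2(FPKM + 1) differences between the groups of 1.47 (Oas1a), 0.25 (Oas1c) and 0.0003 (Oas3), and those that hold none had 1.91 (Oasl2) and 0.70 (Oasl1), so the ranges overlapped. The order depends on the scale: with 0.1 added to FPKM in place of 1, Oas1a was at 2.65 and Oasl2 at 2.34. Oas1g, which also holds a match, was too low to test and is left out here.

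Among the synthetases, Oas1a, a small enzyme with 2-5A activity, stood at 0.56, 0.40 and 0.15 FPKM in controls A1 to A3, against 6.39, 1.92 and 1.46 FPKM in A4, A5 and A6. The depleted mice did not overlap the controls, which leaving out A4, the highest mouse, could not change. The means were 0.37 ± 0.207 FPKM in controls and 3.26 ± 2.72 FPKM in depleted mice (SD, n = 3 each), a ratio of 8.80, or 4.57 without A4. The difference on the log2(FPKM + 1) scale, which understates the fold of genes at such low levels, was 1.47 (standard error 0.38, 95% interval 0.61 to 2.33) with a limma unadjusted p of 0.00412 and a Benjamini-Hochberg adjusted p of 0.37 over all genes tested. It was 0.98 without A4. Permuting the mice exactly over their mean FPKM, two-sided, gave p = 0.1, the smallest value that 3 mice against 3 allow.

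Oas1g, a second active small synthetase, is the near copy of Oas1a. It stood at 0.05, 0.03 and 0.10 FPKM in controls A1 to A3, against 1.47, 0 and 0.21 FPKM in A4, A5 and A6. The mean log2(FPKM + 1) differed by 0.44, or 0.05 without A4, with no test. The groups overlapped, since A5 was listed at 0, where 1 fragment would give 0.143 FPKM. No more than 4.65 fragments stood behind any Oas1g value outside A4, so its level in 5 of 6 mice was not measurable with precision. Of the 75-base windows of the Oas1a transcript 47.6% occur in Oas1g too, and 44.6% of the Oas1g windows occur in Oas1a, so fragments could have been divided between them. The summed level of this pair was 0.61, 0.43 and 0.25 FPKM in controls A1 to A3, against 7.86, 1.92 and 1.67 FPKM in A4, A5 and A6, again without overlap between the groups.

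Oas1b is the gene of the flavivirus resistance locus, and in C57BL/6 mice it carries a premature stop, for which RefSeq lists it as a transcribed pseudogene. It stood at 0.37, 0.72 and 0.50 FPKM in controls A1 to A3, against 5.54, 1.07 and 0.73 FPKM in A4, A5 and A6. The groups did not overlap, but only by the 0.73 FPKM of A6 against the 0.72 FPKM of A2. The means were 0.53 ± 0.177 and 2.45 ± 2.68 FPKM (SD, n = 3 each), a ratio of 4.62, or 1.70 without A4. The log2(FPKM + 1) difference was 0.91 (standard error 0.44, 95% interval -0.10 to 1.92, limma adjusted p = 0.513), and 0.31 without A4.

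Oas1c is a small family member without known synthetase activity. Its levels were 0.77, 0.64 and 0.66 FPKM in controls A1 to A3, against 1.99, 0.73 and 0.58 FPKM in A4, A5 and A6. Only A4 was above the controls, and A6 was below them. The log2(FPKM + 1) difference was 0.25 (standard error 0.25, 95% interval -0.31 to 0.81, limma adjusted p = 0.734) and changed sign to -0.03 without A4. Oas1c shares 7.22% of its windows with other genes, most with the predicted gene Gm43069.

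Oas2, the medium-sized synthetase, was at 0.10, 0.16 and 0.15 FPKM in controls A1 to A3, against 2.78, 0.22 and 0.64 FPKM in A4, A5 and A6. The groups did not overlap. The 0.22 FPKM of A5 rested on about 3.08 fragments, where 1 fragment more or less is a difference of 0.0713 FPKM. The means were 0.137 ± 0.0321 and 1.21 ± 1.37 FPKM (SD, n = 3 each), a ratio of 8.88, or 3.15 without A4. The log2(FPKM + 1) difference was 0.79 (standard error 0.37, 95% interval -0.06 to 1.63, limma adjusted p = 0.498), and 0.32 without A4.

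Oas3, the largest synthetase and the one best known for binding long double-stranded RNA, stood at 0.51, 0.78 and 0.70 FPKM in controls A1 to A3, against 1.30, 0.40 and 0.42 FPKM in A4, A5 and A6. A4 was the highest of the 6 mice, while A5 and A6 were below every control. The means were therefore close, at 0.663 ± 0.139 and 0.707 ± 0.514 FPKM (SD, n = 3 each). The fitted log2(FPKM + 1) difference was 0.0003 (standard error 0.22, 95% interval -0.51 to 0.51, limma adjusted p = 0.999), and -0.24 without A4. Oas3 shares no 75-base window with another gene, and 6.68 fragments stood behind its value in A5 and 22.2 behind that in A6.

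The OAS-like proteins carry ubiquitin-like domains at their C-terminal end. Oasl1, which lacks synthetase activity and is known to hold back the translation of Irf7, stood at 0.16, 0 and 0.36 FPKM in controls A1 to A3, against 2.92, 0.53 and 0.13 FPKM in A4, A5 and A6. The groups overlapped through A6, which was below A1 and A3. The log2(FPKM + 1) difference was 0.70 (standard error 0.41, 95% interval -0.24 to 1.64, limma adjusted p = 0.578), and 0.18 without A4. In A5 and A6 the value rested on 4.09 and 3.18 fragments.

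Oasl2, an OAS-like protein that kept synthetase activity in the mouse, had the highest FPKM of the members in every mouse. Its levels were 2.13, 1.24 and 1.54 FPKM in controls A1 to A3, against 31.35, 4.18 and 4.60 FPKM in A4, A5 and A6. The groups did not overlap, and leaving out A4, the highest mouse, could not change that. The means were 1.64 ± 0.453 and 13.4 ± 15.6 FPKM (SD, n = 3 each), a ratio of 8.17, or 2.68 without A4. The log2(FPKM + 1) difference was 1.91 (standard error 0.61, 95% interval 0.51 to 3.31) with a limma unadjusted p of 0.0136 and an adjusted p of 0.388, and 1.04 without A4. Oasl2 was also the best sampled member, with 46.2 or more fragments behind each value.

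**Figure D1:**
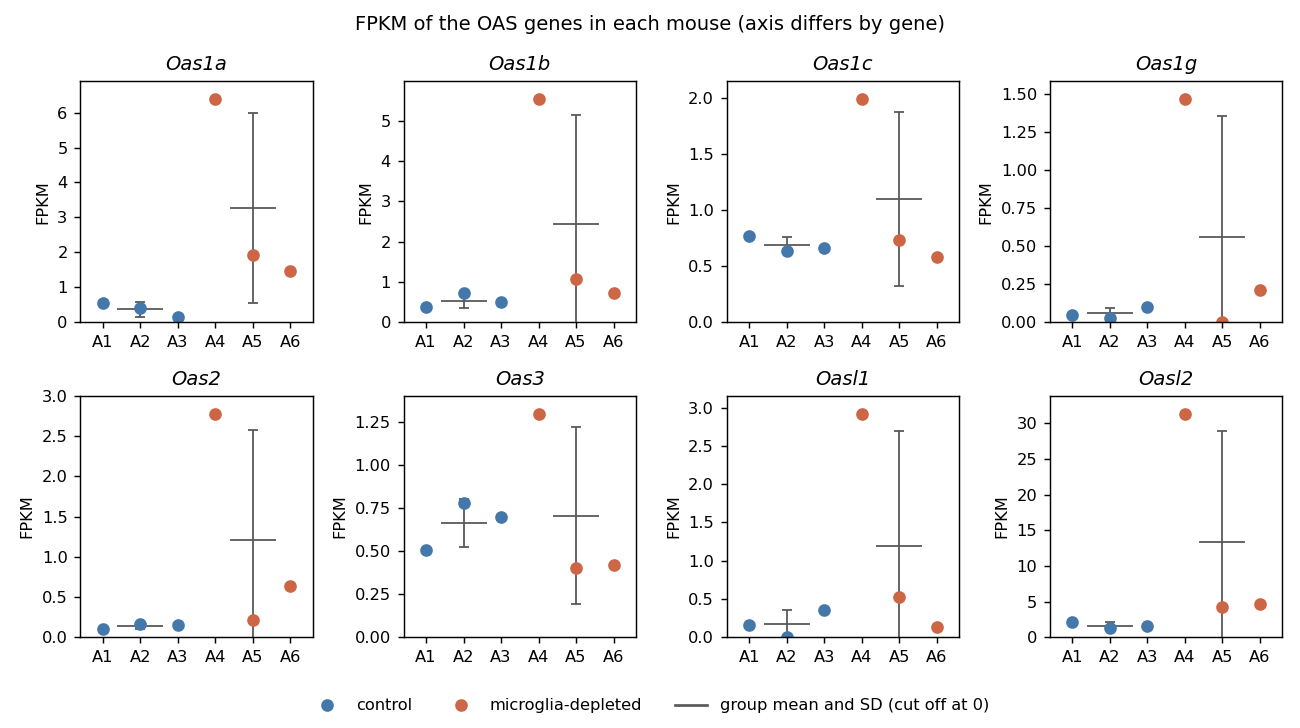
FPKM (y axis, linear from 0, a different range for each gene) of the 8 OAS genes in control mice A1 to A3 (blue) and microglia-depleted mice A4 to A6 (orange). Grey marks give the group mean and SD (n = 3), cut off at 0. A4 is the highest mouse in all 8 panels, and in the Oas3 panel A5 and A6 lie below the 3 controls.

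Counted over the family, 0 of 7 tested members passed the adjusted threshold of 0.1, against 0.0278% of all genes tested. Oas1a and Oasl2 were past an unadjusted limma p of 0.05 on the higher side, which 4.79% of all genes were. In 4 of 7 tested members, Oas1a, Oas1b, Oas2 and Oasl2, each depleted mouse was above each control, against 8.21% of all genes tested. Leaving out A4 could not undo this separation in the same 4, since A4 was their highest mouse, so that they kept it is no support. Oas3 separated the opposite way without A4. With 1 mouse fewer such separation was commoner over all genes tested, at 14.5% higher and 15.7% lower. All 7 had a higher mean of log2(FPKM + 1) in depleted mice, Oas3 by only 0.0003, with a median difference of 0.79 against -0.01 over all genes tested. Without A4 the median over the 7 was 0.31. Oas1a, Oas2 and Oasl1 could pass the filter only where depleted mice were high, so these counts describe the members that passed and support no statement about the family as such.

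The 3 depleted mice were unlike each other in size of the difference. Oasl2 was 19.2 times its control mean in A4, 2.55 times in A5 and 2.81 times in A6. Oas1a was 17.3, 5.19 and 3.95 times its control mean in the same order. Of the 8 members, 8 were above every control in A4, 5 in A5 and 5 in A6. In A5 these were Oas1a, Oas1b, Oas2, Oasl1 and Oasl2, and in A6 Oas1g took the place of Oasl1. Few fragments stood behind Oas2 and Oasl1 in A5, about 3.08 and 4.09, and behind Oas1g in A6, about 4.65. The share of all genes above every control in a single mouse was not counted, so these numbers are no result about the members.

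**Figure D2:**
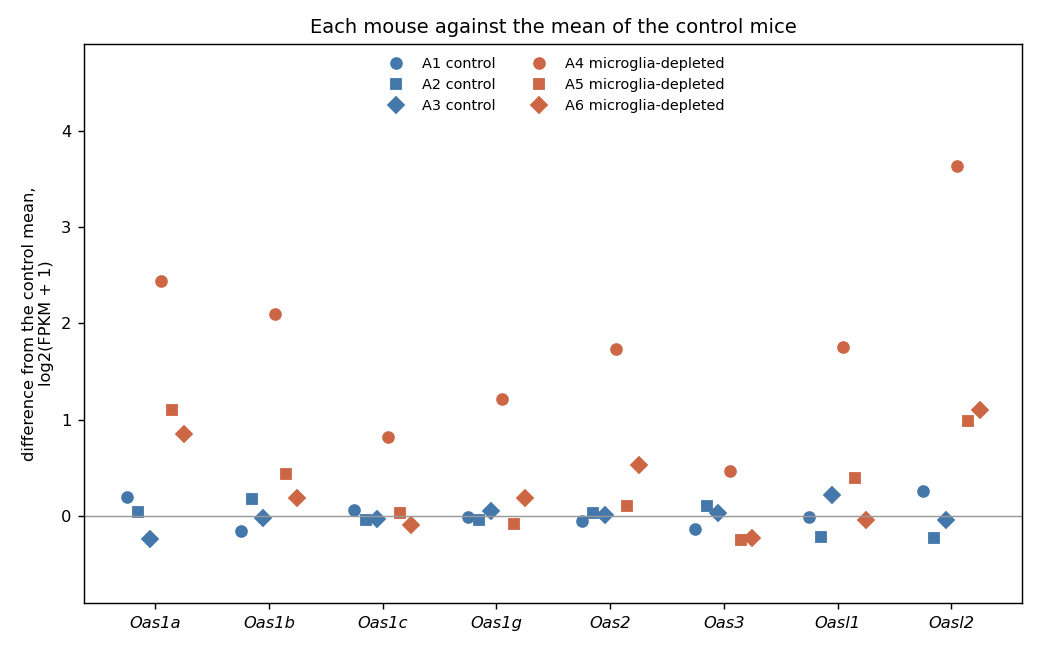
Difference of each mouse from the mean of the 3 control mice on the log2(FPKM + 1) scale (y axis) for each OAS gene (x axis), with control mice in blue, depleted mice in orange and a marker shape for each mouse. A4 lies from 0.47 (Oas3) to 3.63 (Oasl2) above the control mean, and A5 and A6 lie clear of the controls for Oas1a and Oasl2 and below them for Oas3.

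FPKM is scaled to transcript length, so levels can be ordered between genes. In controls the order of mean FPKM was Oasl2, Oas1c, Oas3, Oas1b, Oas1a, Oasl1, Oas2 and Oas1g. Only the first step, from Oasl2 at 1.64 FPKM to Oas1c at 0.69 FPKM, separated neighbours whose ranges over mice did not overlap. In depleted mice the order was Oasl2, Oas1a, Oas1b, Oas2, Oasl1, Oas1c, Oas3 and Oas1g, and the ranges of all neighbours overlapped.

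The summed FPKM of the 8 members was 4.65, 3.97 and 4.16 in controls A1 to A3, against 53.7, 9.05 and 8.77 in A4, A5 and A6. Oasl2 made up 31.2% to 45.8% of this sum in controls and 46.2% to 58.3% in depleted mice. Oas3 made up 11% to 19.6% of it in controls and 2.42% to 4.79% in depleted mice. Oas3 was thus a smaller part of the OAS RNA in each depleted mouse. This share falls when other members rise, so it does not show a fall of Oas3, whose own FPKM was highest in A4. The FPKM ratio of Oas1a to Oas3, looked at after the values were seen, was 1.10, 0.513 and 0.214 in controls A1 to A3, against 4.92, 4.80 and 3.48 in A4, A5 and A6. The ratio in A5 rests on about 12.8 fragments of Oas1a and 6.68 of Oas3 and is imprecise.

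For each tested member the 3 genes with the most similar pattern over the 6 mice were found by the root mean square (RMS) difference of log2(FPKM + 1) after each gene's own mean was taken off. This scale compresses genes at low levels, so a low member can lie near a higher gene whose fold differences are smaller. The RMS of the member itself ran from 0.246 (Oas3) to 1.293 (Oasl2), so a smaller RMS difference is not a closer match between members. Among those nearest to Oas1a were the interferon-inducible GTPases Igtp (RMS difference 0.171) and Irgm1 (0.183). Nearest to Oasl2 were the interferon-induced Ifi27l2a (0.133), the transcription factor Irf7 (0.178) and I830012O16Rik (0.181). Nearest to Oas2 were Bcl2a1b (0.061), a survival protein of blood cells, Cd274 (0.097), which encodes PD-L1, and Trim34a (0.098).

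Oasl1 was nearest to Ifih1 (0.103), the RNA sensor MDA5, to Cdkn1a (0.106), the cell cycle inhibitor p21, and to Gm10406 (0.106). Oas1b was nearest to the immediate early gene Ier2 (0.124), to Cdkn1a (0.161) and to Samd9l (0.161). The genes nearest to Oas3 were Egr3 (0.038), an immediate early transcription factor of neurons, Tex30 (0.040) and Trp53 (0.054), which encodes p53, and those nearest to Oas1c were Ptprh (0.061), Snhg7 (0.062) and Mthfd1l (0.065). Egr3 stood at 20.96, 26.85 and 23.70 FPKM in controls A1 to A3, against 33.88, 19.51 and 20.01 FPKM in A4, A5 and A6, with A4 highest and A5 and A6 lowest as for Oas3. The 6 points of each pattern come from the same libraries, and for every member A4 lies farthest from the gene's mean, so the likeness is given without a test.

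**Figure D3:**
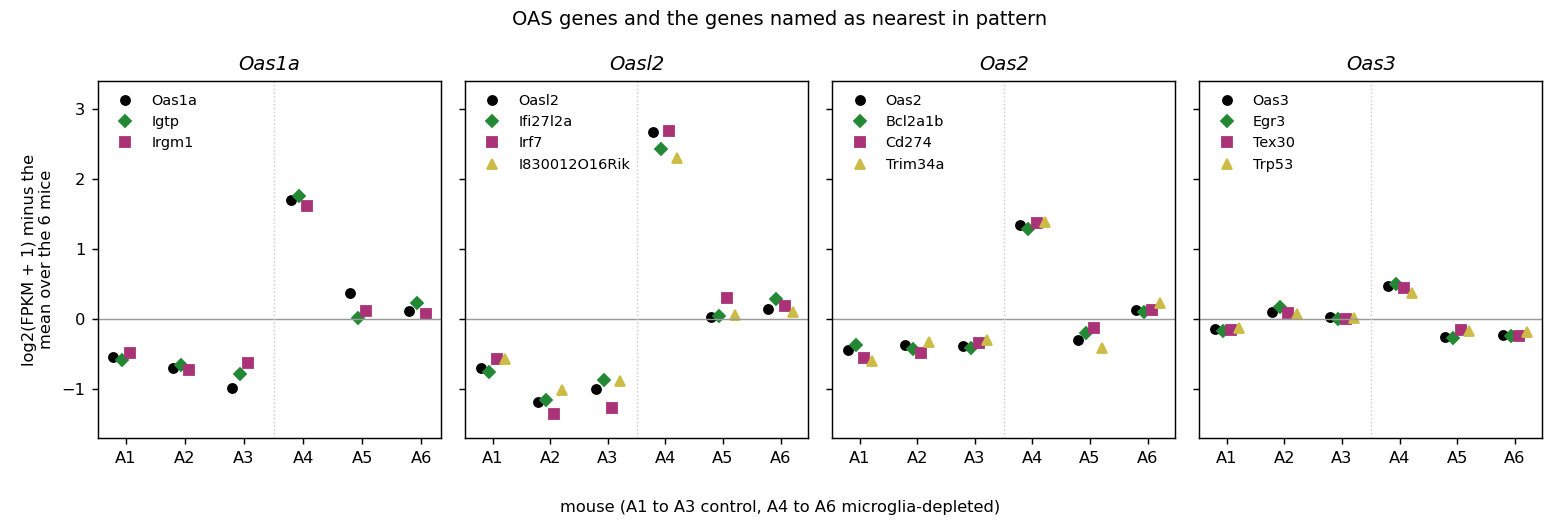
log2(FPKM + 1) of Oas1a, Oasl2, Oas2 and Oas3 (black) and of the genes named above as nearest to each (coloured) in each mouse, after the mean over the 6 mice was taken off each gene (y axis). In the first 3 panels controls A1 to A3 lie below the gene mean and A4 lies far above it, while in the Oas3 panel the range is narrow and A5 and A6 are lowest.

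Further along the 2-5A branch, 3 genes were tested and none passed. Abce1, a ribosome recycling factor that also acts in this branch, had means of 27.5 ± 1.35 and 28.4 ± 2.99 FPKM (SD, n = 3 each). Its log2(FPKM + 1) difference was 0.04, or -0.02 without A4. Pde12, which degrades 2-5A, had means of 3.81 ± 0.287 and 3.54 ± 1.40 FPKM and a difference of -0.13, or -0.32 without A4. Enpp1, a phosphodiesterase that also cleaves 2-5A, had means of 1.10 ± 0.306 and 0.733 ± 0.117 FPKM. Its difference was -0.27 (limma adjusted p = 0.601), or -0.21 without A4. With A4 included, it was the only pathway gene with each depleted mouse below each control. The remaining mouse Oas1 paralogs Oas1d, Oas1e, Oas1f and Oas1h were too low to test, with group means of at most 0.08 FPKM.

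Upstream, the interferons themselves were almost unseen. Of 10 ligand genes listed, 9 were at 0 in every mouse, and the exception was Ifnb1, at 0.28 FPKM in A4 and at 0 in the other mice. The fragments behind this low value were not estimated, so it cannot be set against the 0 of the other mice. The 7 receptor and kinase genes were all tested, and Ifnar1, a chain of the type 1 receptor, had the smallest difference, with means of 8.03 ± 0.653 and 8.01 ± 0.569 FPKM (SD, n = 3 each). Ifngr1, a chain of the interferon gamma receptor, had the largest, with means of 7.63 ± 0.436 and 9.89 ± 0.703 FPKM, a log2(FPKM + 1) difference of 0.33 (limma adjusted p = 0.378) and no overlap between the groups.

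Of the 6 transcription factors reported, 4 were higher and 2 lower on average. Irf7, Irf9, Stat2 and Irf5 had log2(FPKM + 1) differences of 2.12, 1.04, 0.75 and 0.41, each without overlap between the groups and each with an unadjusted limma p under 0.05 but an adjusted p of 0.378 to 0.418. Without A4 these 4 differences were 1.30, 0.51, 0.42 and 0.36. On the higher side, groups did not overlap in 8.21% of all genes tested, and 4.79% had an unadjusted limma p under 0.05. Irf7 stood at 1.82, 0.64 and 0.74 FPKM in controls A1 to A3, against 25.81, 4.14 and 3.75 FPKM in A4, A5 and A6. Irf3, which acts before interferon is made and is itself not known as a strongly induced gene, had a difference of -0.37, or -0.18 without A4, and Irf1 one of -0.15 that was -0.57 without A4.

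Among the 8 double-stranded RNA sensors and effectors, 5 were higher and 3 lower on average. Groups did not overlap in 2, both on the higher side, against 8.21% of all genes tested. Ddx58, which encodes the sensor RIG-I, had the largest difference with all 6 mice, 0.83 on the log2(FPKM + 1) scale but 0.17 without A4, and the adaptor Mavs the smallest at -0.07, or -0.22 without A4. This order rests on A4, without which Eif2ak2 was at 0.25, above Ddx58, and Dhx58 was closest to 0 at 0.11. The feedback genes Isg15, a ubiquitin-like modifier, and Usp18, which removes it, differed by 1.98 and 1.82, or 1.02 and 0.82 without A4. All 11 other targets of the response were higher on average, from Ifit2 at 0.69 to the chemokine Cxcl10 at 2.69, or 0.11 and 1.67 without A4. In 9 of them the groups did not overlap, against the same 8.21% of all genes tested. Among the 9 were Mx1, Mx2, Rsad2 and Ifi44, whose control means of 0.123, 0.293, 0.287 and 0.273 FPKM were under the filter, so that they were tested only through the depleted mice.

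In all, 37 of the 52 other pathway genes reported were tested and 0 passed the adjusted threshold in either direction. There were 27 higher and 10 lower on average, 15 higher and 0 lower at an unadjusted limma p under 0.05, and 18 higher and 1 lower without overlap between the groups. Over all genes tested, the shares were 4.79% higher and 5.74% lower for the unadjusted p and 8.21% higher and 9.38% lower for groups without overlap. Without A4, 19 of the pathway genes were higher and 3 lower without overlap, against 14.5% and 15.7% of all genes tested. The pathway counts include the 4 genes Mx1, Mx2, Rsad2 and Ifi44 that passed the filter only through the depleted mice, so they support no statement about the pathway as such. The median log2(FPKM + 1) difference of the 37 tested pathway genes was 0.69, or 0.21 without A4. Of these, Ifit3 and Ifi27l2a passed the adjusted threshold when A4 was left out, at limma adjusted p = 0.092 and 0.0962.

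**Figure D4:**
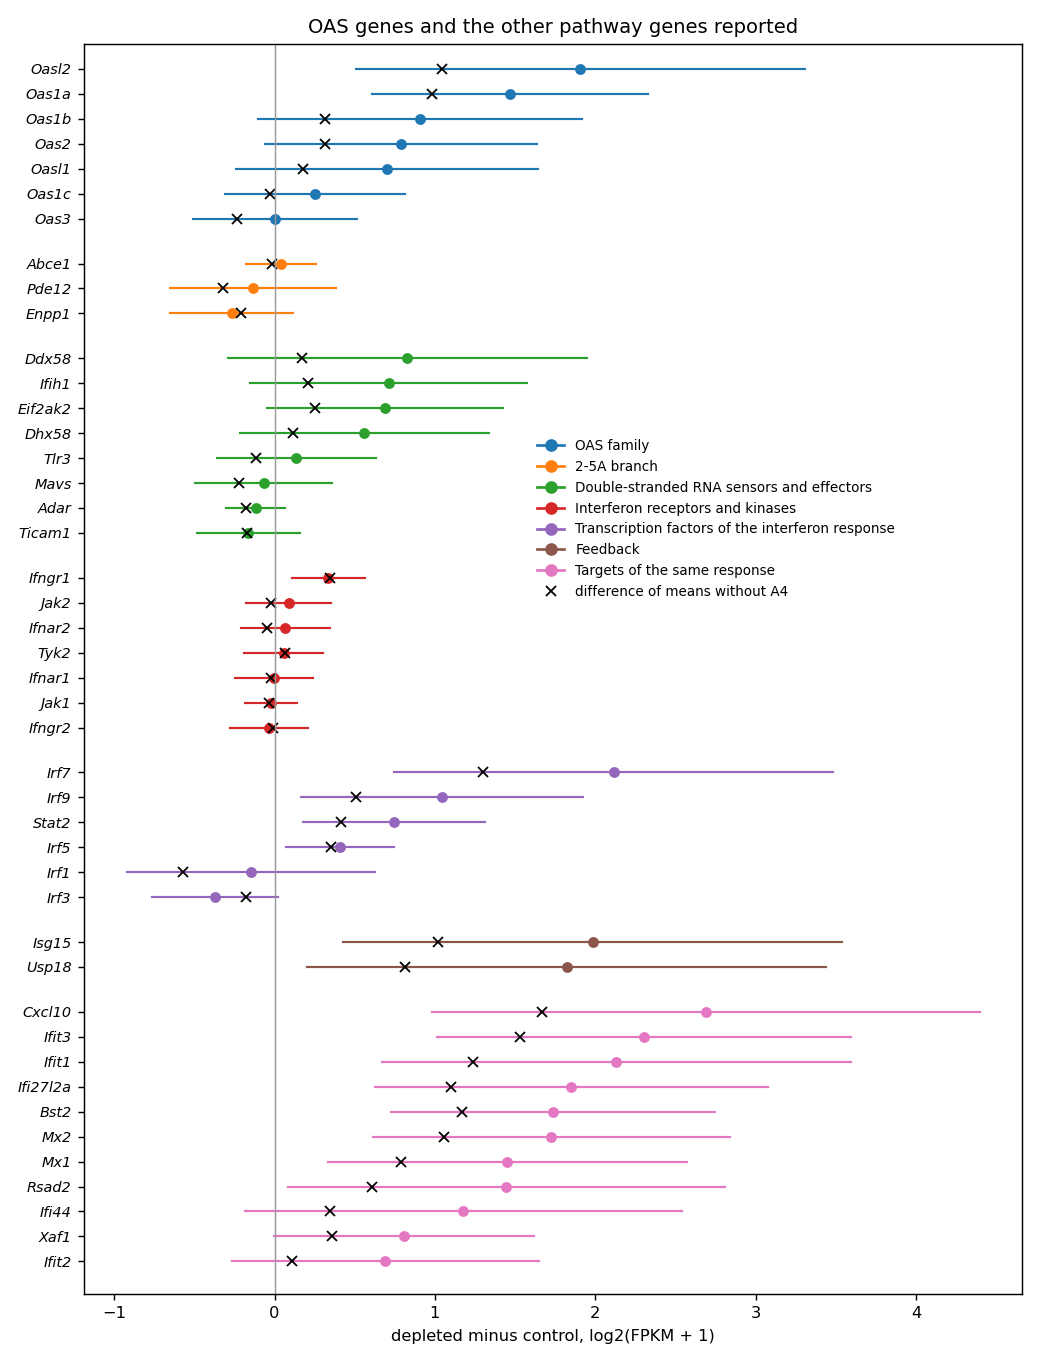
Depleted minus control difference on the log2(FPKM + 1) scale (x axis) with its 95% interval from limma for the 7 tested OAS genes and 37 tested pathway genes (y axis), coloured by list, with black crosses for the difference of means without A4. The OAS genes span 0.0003 to 1.91, the genes of the 2-5A branch lie within -0.27 to 0.04, and most crosses lie closer to 0 than their points.

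In bulk tissue, more or fewer cells of a type and more or less RNA a cell cannot be told apart. The 7 markers of microglia and macrophages summed to 52.0 to 61.9 FPKM in controls and 48.3 to 72.1 FPKM in depleted mice. Within that list Aif1 was higher and P2ry12 lower in each depleted mouse than in each control. The 3 measured monocyte markers summed to 0.39 to 0.78 FPKM in controls, 4.11 FPKM in A4, and 0.62 and 0.90 FPKM in A5 and A6, and Ccr2 did not exceed 0.24 FPKM.

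Of T and NK cell markers, 6 summed to 2.67 to 3.28 FPKM in controls and 2.16 to 3.36 FPKM in depleted mice, with Gzmb at 0 throughout, and the 2 B cell markers Cd79a and Ms4a1 summed to 0.15 to 0.56 FPKM in controls and 0 to 0.71 FPKM in depleted mice, highest in A4, all of it from Cd79a. Siglech, Bst2 and Ccr9, used for plasmacytoid dendritic cells, summed to 6.46 to 9.95 and 14.1 to 38.0 FPKM, mostly from Bst2, which is itself induced by interferon, while Ccr9 was at most 0.13 FPKM. The 4 astrocyte markers summed to 250 to 302 FPKM in controls and 304 to 482 FPKM in depleted mice, of which Gfap alone was 300.31 FPKM in A4, while the means of Aqp4, Aldh1l1 and Slc1a3 were lower in depleted mice.

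The 5 neuron markers summed to 1892 to 2213 FPKM in controls and 1925 to 2087 FPKM in depleted mice. The 4 oligodendrocyte markers summed to 2666 to 2907 and 2350 to 2394 FPKM, the 3 endothelial markers to 10.4 to 11.8 and 13.2 to 15.5 FPKM, and the 4 choroid plexus markers to 165 to 321 and 44.2 to 68.5 FPKM, none of which overlapped between the groups. The part of these differences in the OAS values was not tested.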

How the data were processed

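Cortical RNA of 3 control and 3 microglia-depleted mice was extracted with Trizol, made into TruSeq libraries with poly(A) selection and sequenced as 75-base pairs. The authors deposited 1 table of FPKM values, made per the study's methods by TopHat alignment, RSEM quantification on known transcripts and TMM scaling. The submitters' processing notes also name DESeq and the build mm9. Tool versions and annotation release are not given in the sources used here. RSEM divides ambiguous fragments between near-identical genes, which touches Oas1a and Oas1g.

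Because the table holds no counts, log2(FPKM + 1) was tested with limma 3.58.1 in R 4.3.3 (variance trend, two-sided, all 6 mice, no covariate) over the 14385 genes that averaged 0.5 FPKM or more. P-values were adjusted by Benjamini-Hochberg, and an adjusted p under 0.1 counted as a call, as in the study's methods. The fit was checked on simulated data with normal noise and the same shift in every depleted mouse. That check does not cover depleted mice as unequal as A4, A5 and A6. Exact two-sided permutation tests of mean FPKM used SciPy 1.17.1. Depth was estimated from the spacing of low FPKM values, so fragment numbers are approximate, and only counting error is meant where they are given. Shared 75-base windows were counted between GENCODE M21 transcripts. Promoters came from RefSeq on GRCm38.p6, and no coordinates were converted.

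The members and gene lists were chosen with earlier results of these data known. Named genes were all members, the 2-5A branch, the Oas1 paralogs, the transcription factors, the largest and smallest difference of every other list, and for each tested member the 3 genes nearest in pattern. A few genes of these lists are not reported here and enter no count or sum of a list. Ifit3 and Ifi27l2a, named for passing the threshold without A4, and the marker genes named outside their sums were chosen after their values were seen. The fitted differences of members and named genes and the counts past the threshold were recomputed with 0.1 as pseudocount, without the filter, with the filter at 1 FPKM, as TPM, with median-of-ratios scaling, with array weights, without the variance trend, and with each mouse left out in turn. The members' median and Oas1g were recomputed under fewer of these, the members' separation only with mice left out, and the sums, ratios and nearest genes under none.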

Additional observations from a re-analysis of the deposited data

How the results depend on the processing

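No paired analysis was possible because control and depleted mice share no replicate number and no litter or batch is given. Under the alternatives, 79 of 85 member fits kept their direction and stayed past no threshold, 6 changed sign and 0 became significant, with limma adjusted p-values from 0.121 to 1. Oas3 was -0.0795 with a pseudocount of 0.1, -0.0297 as TPM, -0.10 with array weights and -0.24 to 0.12 when 1 mouse was left out, and the cause was not tested. With 1 mouse left out, the range was -0.0309 to 0.43 for Oas1c, -0.0182 to 0.13 for Abce1, -0.32 to 0.14 for Pde12, -0.22 to 0.0390 for Mavs, -0.0368 to 0.0563 for Ifnar1 and -0.57 to 0.0669 for Irf1. Ifnar1 was 0.0016 with median-of-ratios scaling and 0.0037 with array weights.

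The members' median of 0.79 was 1.73 with a pseudocount of 0.1, where low genes are less compressed, and 0.31 to 1.13 with 1 mouse left out. The untested Oas1g differed by 0.44, or 1.21 with that pseudocount. Of all genes, 4 passed the threshold, against 20 with array weights, 2 without the variance trend, 2 without A1, 22 without A4, 29 without A5 and 8 without A6. Of the pathway genes, 0 passed, and 0 to 2 with 1 mouse left out, 2 without A4. Scaling moved the median of all genes by no more than 0.005. Oas1c, Oas2, Oas3 and Oasl1 were not fitted under a minimum mean of 1 FPKM, nor Oas2 and Oasl1 without A4. Depth limits 9 of 48 member values, which rest on fewer than 5 fragments, 3 of them in A5.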
